A study of Homo sapiens with 36 samples.

Results

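The 43 genes described here encode the machinery that brings new secretory and membrane proteins into the endoplasmic reticulum (ER), attaches their N-linked glycans and disposes of those that fail to fold. They were taken by symbol from the 58721 genes of the deposited count table, and all 43 were found and passed the filter on low counts. By role they comprise 7 genes of the signal recognition particle (SRP) and its receptor, 6 of the SEC61 channel and its SEC62 and SEC63 partners, 4 of the translocon-associated protein (TRAP) complex, 5 of the signal peptidase complex, 9 of oligosaccharyltransferase (OST) and 12 of ER-associated degradation (ERAD). The choice went by gene function, but it was made with earlier results of these data known.

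A ribosome that starts to make a secretory protein is bound by the SRP, docks at the SRP receptor and feeds the chain through the SEC61 channel, where the signal peptidase removes the signal peptide and OST transfers a preassembled glycan. Proteins that do not fold are recognised through their trimmed glycans, passed back to the cytosol through a channel built around the ubiquitin ligase SYVN1 (HRD1), and extracted by the ATPase VCP for degradation. PERK, the product of EIF2AK3, is an ER membrane kinase that slows translation when unfolded proteins accumulate. It acts beside the IRE1 and ATF6 branches of the unfolded protein response, which are known to raise the transcription of many of these genes.

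Polyadenylated RNA was sequenced from H1, an established human embryonic stem cell line, labelled either PERK KO or wild type, during directed differentiation to cardiomyocytes. Both genotypes received the WNT activator CHIR99021 first and the WNT inhibitor IWP2 later, with heparin and then insulin in the medium, and were sampled at days 0, 1, 2, 3, 5 and 10 with 3 libraries per genotype and day, 36 in all. How PERK was targeted, how many clones were used and whether the replicates were separate cultures are not stated, so p-values measure the spread between these libraries, which may be technical. EIF2AK3 transcripts were counted at 11.9 to 22.9 CPM (TMM-normalised counts scaled to library size) in PERK KO libraries and at 10.1 to 28.1 CPM in wild-type libraries and were not called different at any day. A change in the genome that leaves the transcript in place would not show in these gene totals, so they do not check the label.

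Promoter sequence is shown for the member whose change was called at every day from 1 to 10 with the smallest p at day 10, HERPUD1, and for the channel subunit SEC61A1, called lower over the same days. The stretches come from RefSeq (GRCh38.p14), read 5′ to 3′ on the plus strand, end just before the annotated gene, and carry in capitals the matches to the stress elements searched.
HERPUD1, chr16:56931892-56932047: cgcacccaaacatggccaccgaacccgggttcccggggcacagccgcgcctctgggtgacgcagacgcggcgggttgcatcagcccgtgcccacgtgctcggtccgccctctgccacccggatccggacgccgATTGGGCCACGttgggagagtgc
SEC61A1, chr3:128051391-128051640: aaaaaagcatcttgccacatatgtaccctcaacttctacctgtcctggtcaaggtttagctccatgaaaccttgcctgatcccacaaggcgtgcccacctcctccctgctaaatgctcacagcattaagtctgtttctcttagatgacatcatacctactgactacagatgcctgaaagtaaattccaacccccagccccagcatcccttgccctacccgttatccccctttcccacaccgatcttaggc
The capitals in HERPUD1 are an ERSE-II element (ATTGG and CCACG with 1 base between them), which lies 117 to 107 bases before the RefSeq start. The SEC61A1 stretch held none of the motifs searched. Over the 250 bases before the start, on both strands, ERSE-II occurred in 18 of 35116 promoters (0.0513%) and in HERPUD1 as the 1 match among the 37 members with a promoter in the table. The UPRE core (TGACGTGG) occurred in SEC62, SRP19 and VCP and in 0.612% of all promoters. A C/EBP-ATF site (TGATGNAAT) occurred in SRPRB and in 0.888% of all promoters. ERSE (CCAAT and CCACG with 9 bases between them, 0.074% of all promoters) and a CRE-like ATF site (TGACGTCA, 1.65%) matched 0 of the 37. A match is a description of letters and does not show that a factor binds there.

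Libraries held 14.0 to 25.9 M expected counts (median 18.2 M), and 19772 genes were tested. PERK KO day 0 replicate 2 stood apart: its counted transcripts had a mean effective length of 1736 nt, against 2540 and 2495 nt in the other libraries of its group. Wild-type day 2 replicate 3 also stood apart, with a count-weighted mean gene GC content of 53.0%, against 51.0% and 51.2%. Wild-type libraries of day 3 were spread out too, at 50.6%, 51.5% and 52.6%, and those of day 10 at 51.7%, 52.4% and 53.3%. Cell type markers differed between the genotypes, at day 0 in 1 of 4 cardiac mesoderm, 1 of 6 cardiomyocyte, 1 of 5 neuroectoderm, 1 of 5 endoderm and liver and 2 of 4 fibroblast matrix markers, and more widely later. The summed cardiomyocyte markers stood at 75.6 to 82.4 CPM in PERK KO, against 6358 to 9462 CPM in wild type at day 5 and at 140.2 to 489 CPM in PERK KO, against 11612 to 14129 CPM in wild type at day 10, with 6 of 6 lower in PERK KO on both days. Cardiac mesoderm markers summed to 54.2 to 71.2 CPM in PERK KO, against 4384 to 5925 CPM in wild type at day 2 (4 of 4 lower), pluripotency markers to 3794 to 4004 CPM in PERK KO, against 743 to 791 CPM in wild type at day 5 (6 of 6 higher), and neuroectoderm markers to 539 to 706 CPM in PERK KO, against 2.16 to 2.79 CPM in wild type at day 10 (5 of 5 higher). No marker of these lists was at 0 in PERK KO at those days. At day 10, 2 of 3 primitive streak markers, 4 of 5 endoderm and liver, 2 of 4 fibroblast matrix and 3 of 3 endothelium markers were also lower in PERK KO. The remaining endoderm and liver marker was higher, and of the 6 pluripotency markers 3 were higher and 2 lower at that day. TBXT, a primitive streak marker, was then at 0 in both genotypes. Their part in the results below was not tested, and in bulk RNA fewer cells of a type and less RNA per cell cannot be told apart.

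Across the 43 genes, PERK KO against wild type gave a mostly higher set at day 0, a few lower genes at day 1, and a split set from day 2 on, in which the calls among signal peptidase and SRP subunits were more often higher and those among ERAD, TRAP and OST subunits more often lower. The first of these directions did not hold with a GC content offset described below: SRP calls then numbered 0 higher and 1 lower at day 2, 0 and 1 at day 5 and 1 and 4 at day 10, and signal peptidase calls 2 and 1, 1 and 1, and 2 and 2. At day 0, 15 members were called higher and 1 lower (edgeR, Benjamini-Hochberg adjusted p under 0.05), where 21.1% of all genes tested were called, 12.5% higher and 8.64% lower. At day 1, 0 members were higher and 5 lower, against 15.8% of all genes (8.11% higher, 7.72% lower). At day 2, 9 were higher and 12 lower, against 42.6% (20.9% and 21.7%). At day 3, 2 were higher and 11 lower, against 45.1% (21.9% and 23.2%). At day 5, 9 were higher and 14 lower, against 59% (28.6% and 30.5%). At day 10, 15 were higher and 17 lower, against 67.3% (33.3% and 34%). Set beside all genes, 37.2%, 11.6%, 48.8%, 30.2%, 53.5% and 74.4% of the members were called on days 0, 1, 2, 3, 5 and 10, above the share of all genes at days 0, 2 and 10 and below it at days 1, 3 and 5.

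The median log2 fold change of the 43 genes was 0.25, -0.22, -0.00, -0.14, -0.12 and -0.08 at days 0, 1, 2, 3, 5 and 10. HERPUD1, SYVN1 and SEC61A1 were called lower at 5 of the 6 days, SEC11C was called higher at 5, and DERL1 was called at 5, higher at day 0 and lower at the others. SEC61B, the small beta subunit of the channel, and SSR1, the alpha subunit of TRAP, were called at no day. The groups did not overlap in 21, 27, 26, 15, 32 and 37 of the 43 genes at days 0, 1, 2, 3, 5 and 10, against 30%, 48.2%, 56.5%, 53.1%, 72.7% and 72.3% of all genes tested.

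Both the day 0 and the day 1 counts depended on which libraries were fitted. Without PERK KO day 0 replicate 2, day 0 had 8 members higher and 3 lower, where 22.4% of all genes were called, and day 1 had 0 higher and 9 lower, where 21.8% were. Leaving out wild-type day 0 replicate 2 or 3 left 10 calls at day 0. Leaving out wild-type day 1 replicate 1, 2 or 3, or PERK KO day 1 replicate 1 or 3, left 1 call at day 1, and leaving out PERK KO day 1 replicate 2 left 2. A fit on the 6 libraries of day 0 alone called 0 members (12 at an unadjusted p under 0.05), where 1.87% of all genes were called. With a replicate block on those libraries edgeR also called 0 members (8 at an unadjusted p under 0.05) and 0% of all genes. A fit on the 6 libraries of day 1 called 1 member higher and 21 lower, where 44.4% of all genes were called. With the block it called 1 higher and 23 lower, where 43.9% were. DESeq2 called 16 higher and 1 lower at day 0.

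Mean gene GC content of the counted transcripts also moved with genotype: the PERK KO libraries of days 2, 5 and 10 lay between 49.8% and 50.3%, and the wild-type libraries of those days between 51.0% and 53.3%. A GC content offset, chosen after seeing the data, gave 12 higher and 3 lower members at day 0, 0 and 8 at day 1, 4 and 15 at day 2, 2 and 14 at day 3, 2 and 20 at day 5, and 7 and 26 at day 10. Under that offset 27.9%, 23.9%, 41.7%, 52.6%, 59.8% and 65.3% of all genes were called on those days. Of the higher calls, 9 of 15, 3 of 9, 2 of 2, 2 of 9 and 6 of 15 kept their call with the offset at days 0, 2, 3, 5 and 10. Of the lower calls, 1 of 1, 3 of 5, 11 of 12, 11 of 11, 14 of 14 and 16 of 17 kept it at days 0, 1, 2, 3, 5 and 10. Values with the offset stand beside some of the higher calls below. The higher calls of SRP14, SPCS1, SPCS2, DAD1, MAGT1 and DERL2 at day 0 and of MAGT1 at day 2 were among those lost with it.

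**Figure D1:**
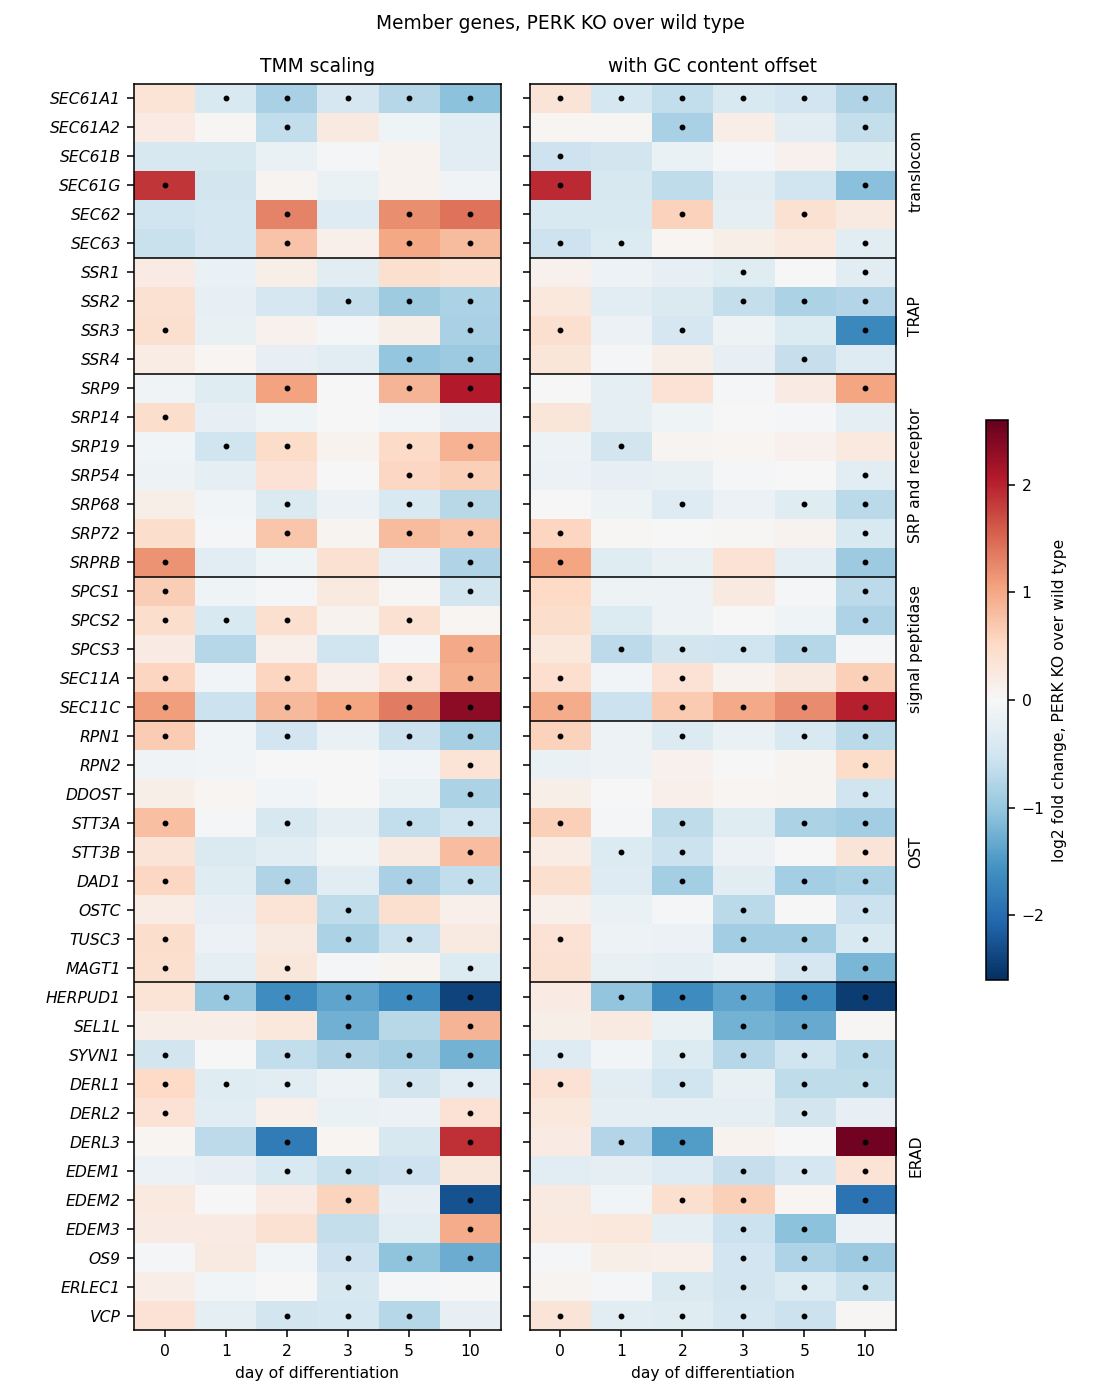
Log2 fold change of PERK KO over wild type for the 43 genes (rows, grouped by role) at days 0 to 10 (columns), scaled by TMM on the left and with a GC content offset on the right; red is higher and blue lower in PERK KO, and a dot marks an adjusted p under 0.05 (edgeR, n = 3 libraries per group). HERPUD1 and SEC61A1 are blue from day 1 to day 10 in both panels, SEC11C is red at day 0 and from day 2 in both, and the red of SEC62, SEC63 and SRP72 at days 2, 5 and 10 is paler or turns on the right.

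Among SRP and receptor genes, the subunits split, SRP9 being higher and SRP68 lower in PERK KO at days 2, 5 and 10; with the GC content offset SRP9 kept its direction and its day 10 call. Higher and lower calls among the 7 genes numbered 2 and 0 at day 0, 0 and 1 at day 1, 3 and 1 at day 2, 0 and 0 at day 3, 4 and 1 at day 5, and 4 and 2 at day 10. At day 3, 1 gene had an unadjusted p under 0.05 and DESeq2 called 0. SRP9, which with SRP14 forms the part of the particle that pauses elongation, had 309, 279 and 293 CPM in PERK KO, against 165, 172 and 91.3 CPM in wild type at day 2. For SRP9 the log2 fold change was 1.04 ± 0.21 (SE, adjusted p = 1.69e-04). The PERK KO libraries were the higher ones. At day 5 it had 234, 247 and 246 CPM in PERK KO, against 122, 127 and 144 CPM in wild type. SRP9 thus had a log2 fold change of 0.89 ± 0.21 (SE, adjusted p = 5.78e-04). At day 10 SRP9 had 275, 267 and 268 CPM in PERK KO, against 79.3, 64.2 and 51.8 CPM in wild type. For SRP9 the log2 fold change was 2.05 ± 0.22 (SE, adjusted p = 1.39e-09). Every PERK KO library of those 3 days was above every wild-type library. With the GC content offset the fold change of SRP9 was 0.38 (adjusted p = 0.0662) at day 2, 0.22 (adjusted p = 0.266) at day 5 and 1.03 (adjusted p = 3.12e-06) at day 10, so the day 10 call was kept and the earlier ones were not.

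SRP68, a scaffold subunit of the SRP that binds its RNA, went the other way. It had 86.4, 89.8 and 91.0 CPM in PERK KO, against 113, 108 and 127 CPM in wild type at day 2. SRP68 thus had a log2 fold change of -0.38 ± 0.09 (SE, adjusted p = 0.00116). SRP68 had 81.4, 75.5 and 78.1 CPM in PERK KO, against 100.2, 103 and 104 CPM in wild type at day 5. For SRP68 the log2 fold change was -0.39 ± 0.09 (SE, adjusted p = 5.59e-04). At day 10 SRP68 had 71.0, 69.2 and 69.7 CPM in PERK KO, against 110.0, 118 and 120.2 CPM in wild type, with no overlap between the groups on any of these days. SRP68 thus had a log2 fold change of -0.73 ± 0.09 (SE, adjusted p = 4.37e-08). The offset left all 3 calls, with a fold change of -0.69 (adjusted p = 1.77e-10) at day 10.

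SRP72, the partner of SRP68, was called higher at days 2, 5 and 10 with log2 fold changes of 0.71, 0.83 and 0.73, which became 0.00 (adjusted p = 1), 0.09 (adjusted p = 0.47) and -0.39 (adjusted p = 0.00103) with the offset. SRP54, the GTPase that reads the signal peptide, had 0.55 at day 5 and 0.61 at day 10, and -0.02 (adjusted p = 0.849) and -0.27 (adjusted p = 0.00387) with the offset. Both SRP72 and SRP54 were thus called higher without the offset and lower with it at day 10. The SRP72 call was lost without wild-type day 2 replicate 3 (adjusted p = 0.121) at day 2 and without wild-type day 10 replicate 3 (adjusted p = 0.0567) at day 10, and that of SRP54 without wild-type day 10 replicate 3 (adjusted p = 0.0803) at day 10 and without wild-type day 5 replicate 1 or PERK KO day 5 replicate 3 (adjusted p = 0.0894 and 0.0596) at day 5.

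SRP19, which helps assemble the particle, was lower at day 1 with 28.8, 24.6 and 28.8 CPM in PERK KO, against 39.8, 40.5 and 36.8 CPM in wild type. For SRP19 the log2 fold change was -0.51 ± 0.17 (SE, adjusted p = 0.0359), a call lost in 6 of 36 leave-one-out fits (adjusted p up to 0.156). It was called higher at days 2, 5 and 10, with log2 fold changes of 0.48, 0.49 and 0.90, against 0.07 (adjusted p = 0.7), 0.11 (adjusted p = 0.507) and 0.26 (adjusted p = 0.104) with the offset. The day 2 call of SRP19 was lost without wild-type day 2 replicate 3 or PERK KO day 2 replicate 1 or 3 (adjusted p = 0.15, 0.0881 and 0.0547), and the day 5 call without wild-type day 5 replicate 1 or 2 (adjusted p = 0.0701 and 0.0573). SRP19 shares 368 bases with REEP5, and whether reads were counted by strand is not stated.

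SRPRB, the membrane anchor of the SRP receptor, was above wild type at day 0 and below it at day 10. At day 0 it had 42.8, 74.7 and 45.1 CPM in PERK KO, against 27.7, 24.3 and 20.0 CPM in wild type, with no overlap. SRPRB thus had a log2 fold change of 1.17 ± 0.18 (SE, adjusted p = 2.77e-05). At day 10 it had 22.2 ± 2.62 CPM in PERK KO and 38.1 ± 2.41 CPM in wild type (SD, n = 3 each). For SRPRB the log2 fold change was -0.78 ± 0.18 (SE, adjusted p = 3.95e-04). SRP14 had 177, 321 and 177 CPM in PERK KO, against 159, 165 and 167 CPM in wild type at day 0. SRP14 thus had a log2 fold change of 0.46 ± 0.15 (SE, adjusted p = 0.0228). That call was lost without wild-type day 0 replicate 1, 2 or 3 or PERK KO day 0 replicate 2 (adjusted p = 0.0664, 0.0572, 0.0571 and 0.4).

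In the SEC61 channel, the pore subunit SEC61A1 was lower in PERK KO at 5 days while the accessory proteins SEC62 and SEC63 were higher at days 2, 5 and 10, which for SEC63 turned at day 10 with the GC content offset. The 6 genes had 1 higher and 0 lower call at day 0, 0 and 1 at day 1, 2 and 2 at day 2, 0 and 1 at day 3, 2 and 1 at day 5, and 2 and 1 at day 10. SEC61A1 (ENSG00000058262.9, GRCh38 chr3:128051641-128071683, plus strand) had 197, 223 and 194 CPM in PERK KO, against 275, 267 and 269 CPM in wild type at day 1. For SEC61A1 the log2 fold change was -0.40 ± 0.13 (SE, adjusted p = 0.0383). All PERK KO values of that day lay below all wild-type values. At day 2 it had 194, 202 and 200.4 CPM in PERK KO, against 319.6, 316 and 432 CPM in wild type. SEC61A1 thus had a log2 fold change of -0.84 ± 0.13 (SE, adjusted p = 7.09e-06). At day 3 it had 221, 233 and 248 CPM in PERK KO, against 254, 292 and 401 CPM in wild type. For SEC61A1 the log2 fold change was -0.43 ± 0.13 (SE, adjusted p = 0.00871).

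At day 5 the values of SEC61A1 were 187, 209 and 196 CPM in PERK KO, against 363, 307 and 312 CPM in wild type. SEC61A1 thus had a log2 fold change of -0.73 ± 0.13 (SE, adjusted p = 2.73e-05). At day 10 they were 184, 182 and 175 CPM in PERK KO, against 315, 413 and 406 CPM in wild type. For SEC61A1 the log2 fold change was -1.07 ± 0.14 (SE, adjusted p = 4.95e-08). The groups overlapped on none of these 5 days, and with the offset the 5 calls were kept, at -0.50 (adjusted p = 3.92e-06) on day 5 and -0.78 (adjusted p = 1.34e-09) on day 10. At day 0 the direction was the other way and not called, with a log2 fold change of 0.35 (adjusted p = 0.0588), or 0.33 (adjusted p = 0.00296) with the offset. The day 1 call was lost in 5 of 36 leave-one-out fits (adjusted p up to 0.139) and the day 3 call without wild-type day 3 replicate 3 (adjusted p = 0.174). SEC61A1 shares 344 bases with RUVBL1.

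SEC61A2, the second pore paralog, had 12.1, 15.1 and 12.4 CPM in PERK KO, against 18.7, 20.8 and 21.9 CPM in wild type at day 2. SEC61A2 thus had a log2 fold change of -0.63 ± 0.14 (SE, adjusted p = 4.72e-04), and it was called on no other day. It shares 387 bases with NUDT5, so its counts are uncertain. SEC62, which takes part in translocation after translation is complete, had 62.9, 55.7 and 67.1 CPM in PERK KO, against 24.8, 25.2 and 30.6 CPM in wild type at day 5. For SEC62 the log2 fold change was 1.20 ± 0.34 (SE, adjusted p = 0.00301). At day 10 SEC62 had 74.9, 68.5 and 69.4 CPM in PERK KO, against 36.6, 22.9 and 20.5 CPM in wild type. SEC62 thus had a log2 fold change of 1.41 ± 0.34 (SE, adjusted p = 5.65e-04). The PERK KO libraries were above all wild-type libraries on both days, and the offset gave 0.60 (adjusted p = 0.00356) at day 2, 0.40 (adjusted p = 0.0353) at day 5 and 0.23 (adjusted p = 0.221) at day 10. SEC63, the J-domain partner that recruits the chaperone HSPA5, had log2 fold changes of 0.74, 1.00 and 0.81 at days 2, 5 and 10, and 0.05 (adjusted p = 0.747), 0.24 (adjusted p = 0.0681) and -0.28 (adjusted p = 0.0309) with the offset, the last a lower call. The SEC63 call at day 2 was lost without wild-type day 2 replicate 3 or wild-type day 5 replicate 1 or PERK KO day 2 replicate 1 or 3 (adjusted p = 0.303, 0.0507, 0.11 and 0.0739), and that at day 10 without wild-type day 10 replicate 3 (adjusted p = 0.123).

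SEC61G, the gamma subunit, was the member with the largest difference at day 0. It had 39.6, 96.8 and 41.0 CPM in PERK KO, against 19.0, 15.0 and 14.7 CPM in wild type. For SEC61G the log2 fold change was 1.86 ± 0.21 (SE, adjusted p = 1.68e-07). The groups did not overlap, but replicate 2 of PERK KO, the short-transcript library, stood far above its 2 neighbours. Without it the fold change was 1.31 (adjusted p = 1.27e-08).

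**Figure D2:**
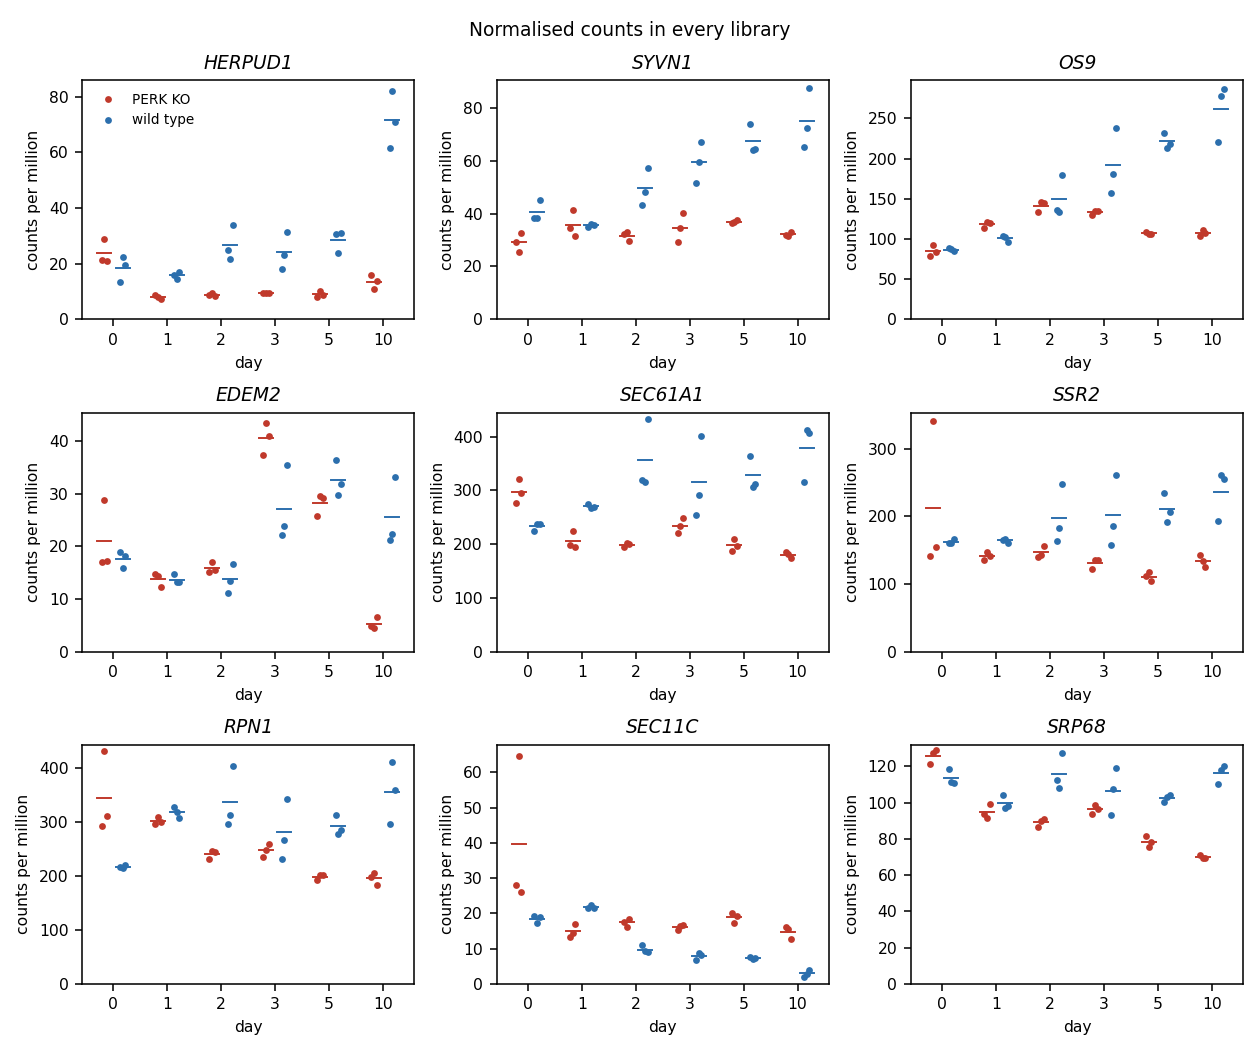
CPM (TMM-normalised) of 9 members in every library by day of differentiation, PERK KO in red to the left of wild type in blue; each point is a library and each bar a mean of 3. At day 10 the wild-type points of HERPUD1, OS9, SYVN1, EDEM2, RPN1, SSR2 and SEC61A1 all lie above the PERK KO points, and those of SEC11C below them.

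The TRAP complex, which binds the channel and helps some signal peptides enter, was lower in PERK KO late. Of its 4 genes, 1 was called higher at day 0, 0 at days 1 and 2 by edgeR (0 and 1 at an unadjusted p under 0.05) and by DESeq2, 1 lower at day 3, 2 lower at day 5 and 3 lower at day 10. SSR2, the beta subunit, had 122, 135 and 136 CPM in PERK KO, against 158, 186 and 262 CPM in wild type at day 3. SSR2 thus had a log2 fold change of -0.63 ± 0.21 (SE, adjusted p = 0.0156). At day 5 it had 112, 117 and 104 CPM in PERK KO, against 235, 192 and 206 CPM in wild type. For SSR2 the log2 fold change was -0.93 ± 0.21 (SE, adjusted p = 4.03e-04). At day 10 SSR2 had 143, 134 and 126 CPM in PERK KO, against 193, 261 and 255 CPM in wild type, with no overlap at any of the 3 days. SSR2 thus had a log2 fold change of -0.82 ± 0.21 (SE, adjusted p = 0.00113). The day 3 call was lost without wild-type day 3 replicate 3 or PERK KO day 3 replicate 1 (adjusted p = 0.155 and 0.0589).

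SSR4, the delta subunit, had 41.6, 54.6 and 49.1 CPM in PERK KO, against 119, 80.8 and 92.0 CPM in wild type at day 5. For SSR4 the log2 fold change was -1.01 ± 0.28 (SE, adjusted p = 0.00293). At day 10 it was -0.94 (adjusted p = 0.00415), which the offset moved to -0.34 (adjusted p = 0.159). SSR3, the gamma subunit, had 147, 204 and 143 CPM in PERK KO, against 135, 122 and 113 CPM in wild type at day 0. SSR3 thus had a log2 fold change of 0.41 ± 0.14 (SE, adjusted p = 0.0334), a call lost without wild-type day 0 replicate 2 or 3 or wild-type day 5 replicate 1 or PERK KO day 0 replicate 2 (adjusted p = 0.0884, 0.14, 0.0557 and 0.256). At day 10 SSR3 had 87.8, 83.7 and 79.4 CPM in PERK KO, against 158, 174 and 119.8 CPM in wild type. For SSR3 the log2 fold change was then -0.85 ± 0.14 (SE, adjusted p = 4.85e-06), and -1.67 (adjusted p = 1.01e-10) with the offset. SSR4 shares 278 bases with IDH3G.

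Calls among the signal peptidase genes were mostly higher in PERK KO, but evenly split at days 5 and 10 with the GC content offset. Of 5 genes, 4 were higher and 0 lower at day 0, 0 and 1 at day 1, 3 and 0 at day 2, 1 and 0 at day 3, 3 and 0 at day 5, and 3 and 1 at day 10. SEC11C, one of the alternative catalytic subunits (ENSG00000166562.8, GRCh38 chr18:59139477-59158836, plus strand), had 28.0, 64.7 and 26.2 CPM in PERK KO, against 19.4, 17.2 and 18.9 CPM in wild type at day 0. For SEC11C the log2 fold change was 1.09 ± 0.22 (SE, adjusted p = 5.40e-04). The PERK KO libraries were the higher ones without overlap, replicate 2 far above the others, and without it the fold change was 0.55 (adjusted p = 0.0092). At day 2 it had 17.6, 16.3 and 18.5 CPM in PERK KO, against 10.9, 9.35 and 8.93 CPM in wild type. SEC11C thus had a log2 fold change of 0.84 ± 0.22 (SE, adjusted p = 0.00276). At day 3 it had 15.2, 16.3 and 16.8 CPM in PERK KO, against 6.84, 8.86 and 8.13 CPM in wild type. For SEC11C the log2 fold change was 1.02 ± 0.22 (SE, adjusted p = 3.54e-04).

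At day 5 SEC11C had 20.2, 17.2 and 19.3 CPM in PERK KO, against 7.53, 7.13 and 7.45 CPM in wild type. SEC11C thus had a log2 fold change of 1.36 ± 0.23 (SE, adjusted p = 6.64e-06). At day 10 it had 16.2, 15.5 and 12.6 CPM in PERK KO, against 2.02, 2.90 and 3.97 CPM in wild type. For SEC11C the log2 fold change was 2.32 ± 0.24 (SE, adjusted p = 1.34e-09). The PERK KO libraries lay above the wild-type libraries at all 5 days, and the calls were kept with the GC content offset, at 2.03 (adjusted p = 2.26e-07) on day 10. At day 1 the log2 fold change was -0.55 (adjusted p = 0.0872). SEC11A, the other catalytic subunit, was higher at day 0 with 137, 243 and 140.2 CPM in PERK KO, against 119, 119 and 114 CPM in wild type. SEC11A thus had a log2 fold change of 0.56 ± 0.14 (SE, adjusted p = 0.00317). At day 2 SEC11A had 167, 167 and 175 CPM in PERK KO, against 121, 115 and 107 CPM in wild type. For SEC11A the log2 fold change was 0.57 ± 0.13 (SE, adjusted p = 0.00106). At day 10 SEC11A had 183, 178 and 173 CPM in PERK KO, against 89.7, 104 and 86.9 CPM in wild type. SEC11A thus had a log2 fold change of 0.93 ± 0.14 (SE, adjusted p = 6.26e-07). Its groups did not overlap on these days, the offset gave 0.62 (adjusted p = 6.63e-04) at day 10, and the day 0 call was lost without PERK KO day 0 replicate 2 (adjusted p = 0.0518).

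SPCS2, a noncatalytic subunit, changed direction between days. It had 53.3, 45.1 and 53.0 CPM in PERK KO, against 68.2, 67.5 and 64.4 CPM in wild type at day 1. For SPCS2 the log2 fold change was -0.40 ± 0.13 (SE, adjusted p = 0.0384). SPCS2 had 57.9, 58.9 and 56.5 CPM in PERK KO, against 42.7, 40.4 and 47.8 CPM in wild type at day 5. SPCS2 thus had a log2 fold change of 0.40 ± 0.14 (SE, adjusted p = 0.0114). The day 1 call was lost in 6 of 36 leave-one-out fits (adjusted p up to 0.185), and the day 5 call without wild-type day 5 replicate 2 (adjusted p = 0.0564). With the offset the day 5 fold change was -0.11 (adjusted p = 0.622). SPCS3, which supports the catalytic core, was called at day 10 alone with 0.99 (adjusted p = 0.00225), and had -0.04 (adjusted p = 0.758) with the offset. SPCS1 was called lower at day 10 with -0.47 (adjusted p = 0.0495), a call that was lost in 28 of 36 leave-one-out fits (adjusted p up to 0.126) and with the replicate block. SPCS1 shares 2698 bases with NEK4 and 397 with GLT8D1, both on the opposite strand, so its counts are uncertain. NEK4 averaged 33.5 CPM, against 59.7 CPM for SPCS1.

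Calls among the OST subunits were higher at day 0 and mostly lower from day 2. Of 9 genes, 5 were higher and 0 lower at day 0, 0 and 0 at day 1, 1 and 3 at day 2, 0 and 2 at day 3, 0 and 4 at day 5, and 2 and 5 at day 10. At day 1, 0 had an unadjusted p under 0.05 and DESeq2 called 0. RPN1, ribophorin I, had 293, 431 and 312 CPM in PERK KO, against 216, 216 and 220.3 CPM in wild type at day 0. For RPN1 the log2 fold change was 0.67 ± 0.14 (SE, adjusted p = 7.72e-04). At day 2 it had 232, 246 and 244 CPM in PERK KO, against 297, 313 and 405 CPM in wild type. RPN1 thus had a log2 fold change of -0.49 ± 0.14 (SE, adjusted p = 0.00479). At day 10 RPN1 had 199, 205 and 183 CPM in PERK KO, against 296, 411 and 359 CPM in wild type. For RPN1 the log2 fold change was -0.86 ± 0.14 (SE, adjusted p = 3.07e-06). PERK KO libraries were thus above wild type at day 0 and below it later, with no overlap on any of these days.

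DAD1, a small subunit needed for the stability of the complex, had 63.6, 69.4 and 59.4 CPM in PERK KO, against 101, 103 and 127 CPM in wild type at day 2. DAD1 thus had a log2 fold change of -0.78 ± 0.16 (SE, adjusted p = 2.66e-04). At day 5 it had 45.9, 48.6 and 43.7 CPM in PERK KO, against 93.4, 73.0 and 80.7 CPM in wild type. For DAD1 the log2 fold change was -0.84 ± 0.16 (SE, adjusted p = 6.86e-05). At day 0 DAD1 was called higher, 0.54 (adjusted p = 0.017), and lost the call without wild-type day 0 replicate 2 or PERK KO day 0 replicate 2 (adjusted p = 0.0626 and 0.247). STT3A, the catalytic subunit that works at the channel, had 178, 134 and 180.4 CPM in PERK KO, against 78.2, 105 and 103 CPM in wild type at day 0. STT3A thus had a log2 fold change of 0.78 ± 0.14 (SE, adjusted p = 1.24e-04). It was called lower at days 2, 5 and 10, at -0.41, -0.63 and -0.51. STT3B, the other catalytic subunit, which can glycosylate sites the first has skipped, was called at day 10 alone, higher, at 0.80 (adjusted p = 0.00263), and at 0.35 (adjusted p = 0.0249) with the offset. The day 2 call of STT3A was lost without wild-type day 2 replicate 3 or PERK KO day 2 replicate 1 (adjusted p = 0.166 and 0.0639).

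TUSC3 and MAGT1 are alternative oxidoreductase subunits. TUSC3 had 48.2, 45.0 and 47.4 CPM in PERK KO, against 87.1, 84.6 and 77.5 CPM in wild type at day 3. For TUSC3 the log2 fold change was -0.83 ± 0.11 (SE, adjusted p = 3.47e-07). TUSC3 had 49.2, 47.5 and 49.9 CPM in PERK KO, against 69.5, 67.6 and 79.3 CPM in wild type at day 5. TUSC3 thus had a log2 fold change of -0.56 ± 0.11 (SE, adjusted p = 8.86e-05). All PERK KO libraries lay below all wild-type libraries on both days. At day 0 TUSC3 was higher, at 0.46 (adjusted p = 0.00424). MAGT1 was called higher at day 0, 0.42 (adjusted p = 0.00933), and at day 2, 0.29 (adjusted p = 0.0431), and lower at day 10, -0.36 (adjusted p = 0.00745). Per transcript length the day 10 difference was absent, with deposited TPM of 21.3 ± 1.75 in PERK KO and 21.1 ± 4.71 in wild type (SD). The call of MAGT1 at day 0 was lost without wild-type day 0 replicate 3 (adjusted p = 0.0799), and that at day 2 in 14 of 36 leave-one-out fits (adjusted p up to 0.239).

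OSTC, which links STT3A to the channel, had 58.5, 48.8 and 47.3 CPM in PERK KO, against 97.4, 80.3 and 65.7 CPM in wild type at day 3. For OSTC the log2 fold change was -0.66 ± 0.19 (SE, adjusted p = 0.00508). DDOST, the OST48 subunit, had 169, 168 and 160.2 CPM in PERK KO, against 234, 319.9 and 329 CPM in wild type at day 10. DDOST thus had a log2 fold change of -0.83 ± 0.15 (SE, adjusted p = 1.82e-05). Both were lower without overlap, and neither was called on another day. RPN2, ribophorin II, was called at day 10 alone and higher, at 0.36 (adjusted p = 8.98e-04), so the ribophorins differed in direction at that day.

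In ERAD, HERPUD1 showed the largest loss of the 43 genes at day 10, and SYVN1, OS9 and VCP were lower with it at several days. The 12 genes had 2 higher and 1 lower call at day 0, 0 and 2 at day 1, 0 and 6 at day 2, 1 and 7 at day 3, 0 and 6 at day 5, and 4 and 5 at day 10. HERPUD1 (ENSG00000051108.14, GRCh38 chr16:56932048-56944863, plus strand) encodes HERP, a membrane protein that brings the SYVN1 complex together and is a known target of the unfolded protein response. At day 0 it had 21.2, 28.8 and 21.1 CPM in PERK KO, against 13.4, 22.3 and 19.5 CPM in wild type. The groups overlapped, with a log2 fold change of 0.36 ± 0.20 (SE, adjusted p = 0.2). At day 1 it had 8.65, 7.88 and 7.45 CPM in PERK KO, against 15.8, 14.3 and 17.1 CPM in wild type. For HERPUD1 the log2 fold change was -0.98 ± 0.20 (SE, adjusted p = 7.21e-04). Each PERK KO library was already below each wild-type library at that day. At day 2 it had 8.67, 9.44 and 8.22 CPM in PERK KO, against 24.9, 21.7 and 33.8 CPM in wild type. HERPUD1 thus had a log2 fold change of -1.61 ± 0.20 (SE, adjusted p = 9.91e-08).

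At day 3 HERPUD1 had 9.51, 9.45 and 9.31 CPM in PERK KO, against 18.2, 23.3 and 31.3 CPM in wild type. For HERPUD1 the log2 fold change was -1.36 ± 0.20 (SE, adjusted p = 1.08e-06). At day 5 it had 8.04, 10.3 and 8.89 CPM in PERK KO, against 30.5, 23.8 and 31.0 CPM in wild type. HERPUD1 thus had a log2 fold change of -1.65 ± 0.20 (SE, adjusted p = 3.16e-08). The distance between the groups was wider at day 5 than at day 3. At day 10 it had 15.9, 10.9 and 13.6 CPM in PERK KO, against 61.7, 82.2 and 70.9 CPM in wild type. For HERPUD1 the log2 fold change was -2.41 ± 0.20 (SE, adjusted p = 1.03e-11). From day 1 on, the highest PERK KO library was below the lowest wild-type library at each day, and the offset gave -1.02 (adjusted p = 3.52e-04) at day 1 and -2.46 (adjusted p = 3.20e-12) at day 10. No leave-one-out fit lost a HERPUD1 call.

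SYVN1, the ubiquitin ligase and channel of this pathway, had 29.5, 25.5 and 32.8 CPM in PERK KO, against 38.5, 38.2 and 45.3 CPM in wild type at day 0. SYVN1 thus had a log2 fold change of -0.47 ± 0.14 (SE, adjusted p = 0.0143), a call lost without wild-type day 0 replicate 3 (adjusted p = 0.0908). At day 3 it had 29.2, 34.8 and 40.1 CPM in PERK KO, against 51.8, 59.4 and 67.2 CPM in wild type. For SYVN1 the log2 fold change was -0.78 ± 0.14 (SE, adjusted p = 2.10e-05). It was also lower at day 2 (-0.65), day 5 (-0.87) and day 10, where it averaged 32.2 ± 0.817 CPM in PERK KO and 75.0 ± 11.4 CPM in wild type (SD, n = 3 each). SYVN1 thus had a log2 fold change of -1.22 ± 0.14 (SE, adjusted p = 6.26e-09). SYVN1 shares 398 bases with FAU on the same strand and 356 with MRPL49, so part of its count may come from a neighbour. SEL1L, the adaptor that holds SYVN1, was lower at day 3 with -1.24 (adjusted p = 0.003), groups that overlapped and a call lost without wild-type day 3 replicate 1 (adjusted p = 0.0562). At day 10 SEL1L was higher, at 0.88 (adjusted p = 0.0222), which became 0.03 (adjusted p = 0.9) with the offset and was lost without wild-type day 10 replicate 2 or 3 (adjusted p = 0.0531 and 0.158).

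OS9, a lectin that recognises trimmed glycans on misfolded proteins, had 108, 107 and 107 CPM in PERK KO, against 231, 214 and 219 CPM in wild type at day 5. For OS9 the log2 fold change was -1.05 ± 0.12 (SE, adjusted p = 1.76e-08). At day 3 its log2 fold change was -0.53 (adjusted p = 6.60e-04), and at day 10 OS9 averaged 107 ± 3.72 CPM in PERK KO and 262 ± 35.7 CPM in wild type (SD, n = 3 each). OS9 thus had a log2 fold change of -1.29 ± 0.12 (SE, adjusted p = 2.54e-10). ERLEC1, the other lectin, was called at day 3 alone, at -0.42 (adjusted p = 0.0133), and lost that call without wild-type day 3 replicate 1 (adjusted p = 0.0673).

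The EDEM genes, related to the mannosidases that mark glycoproteins for disposal, went different ways. EDEM2 had 4.77, 4.56 and 6.55 CPM in PERK KO, against 21.2, 22.4 and 33.3 CPM in wild type at day 10. For EDEM2 the log2 fold change was -2.27 ± 0.21 (SE, adjusted p = 1.09e-10). At day 3 it was higher in PERK KO, at 0.58 (adjusted p = 0.0147), a call lost without wild-type day 3 replicate 1 or 2 or PERK KO day 3 replicate 2 (adjusted p = 0.0882, 0.0734 and 0.0544). The EDEM2 groups did not overlap on either day. EDEM1 was lower at days 2, 3 and 5, at -0.39, -0.59 and -0.53, and was called on none of them with the effective length offset, at -0.36 (adjusted p = 0.323), 0.08 (adjusted p = 0.856) and -0.30 (adjusted p = 0.38). EDEM3 was higher at day 10 alone, at 0.96 (adjusted p = 0.0207), and had -0.15 (adjusted p = 0.497) with the offset. The day 2 call of EDEM1 was lost without wild-type day 2 replicate 1 or 2 or PERK KO day 2 replicate 1 or 2 (adjusted p = 0.07, 0.0751, 0.0971 and 0.053) and the day 10 call of EDEM3 without wild-type day 10 replicate 2 or 3 or PERK KO day 10 replicate 3 (adjusted p = 0.0642, 0.116 and 0.0541).

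The derlins are membrane proteins of the retrotranslocation channel. DERL1 had 74.5, 69.9 and 69.8 CPM in PERK KO, against 44.6, 51.2 and 52.9 CPM in wild type at day 0. DERL1 thus had a log2 fold change of 0.53 ± 0.11 (SE, adjusted p = 6.87e-04). DERL1 had 64.0, 56.0 and 62.9 CPM in PERK KO, against 77.3, 78.6 and 71.0 CPM in wild type at day 1. The second log2 fold change of DERL1 was -0.31 ± 0.11 (SE, adjusted p = 0.045), a call lost in 26 of 36 leave-one-out fits (adjusted p up to 0.207). It was also lower at days 2, 5 and 10, at -0.27, -0.48 and -0.29, lost at day 2 in 7 of 36 leave-one-out fits (adjusted p up to 0.203) and at day 10 without wild-type day 10 replicate 2 or PERK KO day 10 replicate 2 or 3 (adjusted p = 0.0725, 0.0567 and 0.0514). DERL2 was higher at day 0, 0.37 (adjusted p = 0.0278), lost without wild-type day 0 replicate 2 or PERK KO day 0 replicate 2 (adjusted p = 0.169 and 0.128), and at day 10, 0.38 (adjusted p = 0.0063), which the offset moved to -0.22 (adjusted p = 0.283). DERL2 shares 301 bases with MIS12 on the opposite strand, which averaged 23.5 CPM against 26.1 CPM for DERL2. DERL3 had 1.10, 2.25 and 1.69 CPM in PERK KO, against 6.64, 4.01 and 7.12 CPM in wild type at day 2. For DERL3 the log2 fold change was -1.81 ± 0.33 (SE, adjusted p = 4.46e-05). It was higher in PERK KO at day 10, at 1.91 (adjusted p = 2.28e-05). DERL3 shares 2923 bases with SMARCB1 on the opposite strand, which averaged 159.5 CPM against 4.07 CPM for DERL3, so its values are uncertain. VCP was lower at days 2, 3 and 5, at -0.48, -0.45 and -0.75, lost at day 2 without wild-type day 2 replicate 3 (adjusted p = 0.0913) and at day 3 without wild-type day 3 replicate 3 (adjusted p = 0.119).

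The 75 other genes of the same pathways, listed by function, moved in both directions too. At day 10, 4 of 21 further targeting and insertion genes were higher and 12 lower, with 10 and 10 of 26 OST and lipid-linked oligosaccharide genes, 2 and 6 of 9 glycan trimming genes and 5 and 7 of 19 ERAD genes, where 33.3% of all genes were called higher and 34% lower. EMC10, a subunit of the ER membrane protein complex, had 137, 109 and 136 CPM in PERK KO, against 2095, 1841 and 1587 CPM in wild type at day 10. EMC10 thus had a log2 fold change of -3.85 ± 0.24 (SE, adjusted p = 1.49e-14). TRAM2, a channel partner, was lower at days 2 and 5, at -1.54 (adjusted p = 5.48e-08) and -1.59 (adjusted p = 1.26e-08). MAN1B1, the mannosidase that starts ERAD trimming, was lower at day 10, at -1.63 (adjusted p = 3.76e-10), and the beta subunit of glucosidase II, PRKCSH, at day 5, at -1.03 (adjusted p = 7.37e-07). SVIP, an inhibitor of ERAD that binds VCP, was higher at days 2 and 10, at 3.06 (adjusted p = 4.68e-09) and 2.49 (adjusted p = 1.05e-08), and ALG6, a glucosyltransferase of glycan assembly, at the same days, at 1.60 (adjusted p = 2.09e-07) and 2.19 (adjusted p = 4.30e-10). With the offset the day 10 values were 1.08 (adjusted p = 2.39e-07) for SVIP and 0.94 (adjusted p = 4.12e-04) for ALG6. At day 0 the same lists had 7 higher and 1 lower, 10 and 3, 2 and 1, and 4 and 0 called, against 12.5% and 8.64% of all genes, led by SERP1, which binds the channel during stress, at 0.95 (adjusted p = 3.30e-06), and the ERAD ligase RNF139, at 1.13 (adjusted p = 1.63e-06). These day 0 counts and values include PERK KO day 0 replicate 2, the short-transcript library, and are not given without it.

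Of the genes of the unfolded protein response, HSPA5 and XBP1 were higher in PERK KO at day 0, and at day 10 HSPA5, XBP1, DDIT3, ATF4 and ERN1 were lower and ATF6 higher, the last of which turned with the GC content offset. HSPA5, the main ER chaperone, had 851 ± 281 CPM in PERK KO and 438 ± 32.6 CPM in wild type at day 0 (SD, n = 3 each). For HSPA5 the log2 fold change was 0.96 ± 0.19 (SE, adjusted p = 3.71e-04). At day 10 HSPA5 had 389.7 ± 32.4 CPM in PERK KO and 643 ± 265 CPM in wild type (SD, n = 3 each), a log2 fold change of -0.72 ± 0.18 (SE, adjusted p = 0.00104). XBP1, the transcription factor spliced by IRE1, had log2 fold changes of 1.14 (adjusted p = 5.67e-05) at day 0 and -1.37 (adjusted p = 2.36e-07) at day 10. The day 0 values of HSPA5 and XBP1 include PERK KO day 0 replicate 2, the short-transcript library, and are not given without it. DDIT3, which encodes CHOP downstream of PERK and ATF4, had 2.15, 2.33 and 2.24 CPM in PERK KO, against 22.2, 42.6 and 23.0 CPM in wild type at day 10. DDIT3 thus had a log2 fold change of -3.70 ± 0.28 (SE, adjusted p = 8.51e-13). ATF4 stood at -1.20 (adjusted p = 1.20e-06) at day 10. ERN1, which encodes IRE1, stood at -1.11 (adjusted p = 2.14e-07) and ATF6 at 0.49 (adjusted p = 0.00497) at that day, and with the offset ATF6 stood at -0.35 (adjusted p = 0.0156). Their part in the members' differences was not tested.

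Against day 0 of the same genotype, calls among the members were more often higher than lower in wild type and more often lower than higher in PERK KO, narrowly so in wild type at days 5 and 10 and in PERK KO at day 2 without its short-transcript day 0 library. Wild-type libraries against wild-type day 0 gave 12 higher and 2 lower members at day 1 (44.6% of all genes called), 13 and 5 at day 2 (50.5%, 25.4% higher), 13 and 7 at day 3 (56.8%, 29.3% higher), 14 and 12 at day 5 (61.9%, 31.4% higher) and 16 and 12 at day 10 (69.2%, 34.9% higher and 34.3% lower). PERK KO libraries against PERK KO day 0 gave 2 and 17 at day 1 (43.1% of all genes called, 18% higher and 25.1% lower), 2 and 13 at day 2 (41.4%), 2 and 23 at day 3 (40.3%, 18.5% higher and 21.8% lower), 2 and 20 at day 5 (48.8%) and 5 and 20 at day 10 (61.8%, 29.9% higher). Without PERK KO day 0 replicate 2 the PERK KO counts became 4 and 11, 7 and 8, 4 and 11, 3 and 15, and 4 and 14, where 34%, 34.4%, 35.3%, 40.2% and 55.9% of all genes were called. Leaving out PERK KO day 3 replicate 3 also moved the PERK KO day 3 total, to 16. Each genotype's later days share the 3 day 0 libraries. The fold changes against day 0 given here are without the GC content offset. Over the 43 genes they and gene GC content had Pearson's r of -0.61 in wild type at day 1. At days 2, 3, 5 and 10 it was 0.20, -0.01, 0.23 and 0.13. In PERK KO it was -0.36, -0.42, 0.06, -0.34 and -0.44 at days 1, 2, 3, 5 and 10.

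Day 10 was set against day 0 in each genotype, and HERPUD1 was called lower in PERK KO and higher in wild type. In PERK KO, HERPUD1 had 13.5 ± 2.51 CPM at day 10 and 23.7 ± 4.46 CPM at day 0, against 71.6 ± 10.3 CPM at day 10 and 18.4 ± 4.58 CPM at day 0 in wild type (SD, n = 3 each). Its log2 fold change was -0.81 (adjusted p = 7.28e-04) in PERK KO and 1.96 (adjusted p = 4.31e-10) in wild type. SEC11C had 14.8 ± 1.91 CPM at day 10 and 39.6 ± 21.7 CPM at day 0 in PERK KO, and 2.96 ± 0.977 CPM at day 10 and 18.5 ± 1.11 CPM at day 0 in wild type, with log2 fold changes of -1.42 (adjusted p = 2.19e-06) and, in wild type, -2.65 (adjusted p = 6.60e-11). SRP9 had -0.10 (adjusted p = 0.681) in PERK KO and -2.24 (adjusted p = 1.70e-10) in wild type. SRP19 had -0.53 (adjusted p = 0.00873) in PERK KO and -1.50 (adjusted p = 8.51e-09) in wild type. Without PERK KO day 0 replicate 2 the PERK KO values were -0.87 (adjusted p = 1.90e-05) for SEC11C and -0.32 (adjusted p = 0.132) for SRP19.

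STT3A had -0.13 (adjusted p = 0.406) in PERK KO and 1.16 (adjusted p = 1.10e-08) in wild type, and TUSC3 had 0.80 (adjusted p = 4.53e-07) and, in wild type, 1.03 (adjusted p = 2.58e-09). SEC61G had -0.77 (adjusted p = 0.00131) in PERK KO and 1.17 (adjusted p = 7.76e-06) in wild type, and without PERK KO day 0 replicate 2 the PERK KO value was -0.21 (adjusted p = 0.138), so that the lower call rests on that library. SEC62 had 0.55 (adjusted p = 0.155) in PERK KO and -1.38 (adjusted p = 6.43e-04) in wild type, and SSR2 had -0.66 (adjusted p = 0.00763) and, in wild type, 0.54 (adjusted p = 0.0231). Without that library the PERK KO value of SSR2 was -0.13 (adjusted p = 0.447), also no longer called. SEC11A had 0.04 (adjusted p = 0.818) in PERK KO and -0.33 (adjusted p = 0.032) in wild type. DERL3 had -1.06 (adjusted p = 0.00339) in PERK KO and -2.93 (adjusted p = 1.24e-08) in wild type. Without the same library the PERK KO values became 0.37 (adjusted p = 0.00109) for SEC11A, now called, and -0.60 (adjusted p = 0.0787) for DERL3, no longer called.

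The genotype-by-day interaction, which asks whether the 2 genotypes followed different courses, was called for 39 of the 43 members, against 80.9% of all genes tested. EDEM3, ERLEC1, SSR1 and SEC61B were not called. It was called for 38 members with the GC content offset (83.1% of all genes) and for 40 without PERK KO day 0 replicate 2 (82.4%).

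The day 0 result was checked for short transcripts, since PERK KO day 0 replicate 2 held an excess of them. In that library all 12 members with a median effective length under 1000 nt were above the mean of replicates 1 and 3, by a median of 2.22-fold (1.45 to 3.31). The 10 members of at least 3000 nt had a median ratio of 0.73 (0.357 to 1.30). Across the 43 genes the log2 ratio and the log2 length had Pearson's r = -0.83 and Spearman's rho = -0.84, a description of 1 library. Among all genes tested, 4013 short ones had a median ratio of 1.52 and 5537 long ones 0.66. These ratios had 0.5 CPM added to both sides, which those of the members had not, so the medians are not strictly alike.

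SSR4 had 56.4, 212 and 71.5 CPM in PERK KO, against 107, 98.1 and 90.8 CPM in wild type at day 0. For SSR4 the log2 fold change was 0.19 ± 0.28 (SE, adjusted p = 0.676). Its replicate 2 lay above all wild-type libraries while replicates 1 and 3 lay below them, and without replicate 2 SSR4 was called lower, at -0.62 (adjusted p = 0.0149). SPCS1 had 56.6, 149 and 54.8 CPM in PERK KO, against 60.1, 50.2 and 55.3 CPM in wild type. SPCS1 thus had a log2 fold change of 0.65 ± 0.21 (SE, adjusted p = 0.0279), a call that ended without replicate 2, at 0.02 (adjusted p = 0.951). Of the 16 calls, 9 remained without that library: SEC61G, SRPRB, SEC11C, RPN1, STT3A, TUSC3, MAGT1, SYVN1 and DERL1. The calls of SSR3, SRP14, SPCS1, SPCS2, SEC11A, DAD1 and DERL2 were lost, and SEC61B and SSR4 were called lower instead of uncalled.

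**Figure D3:**
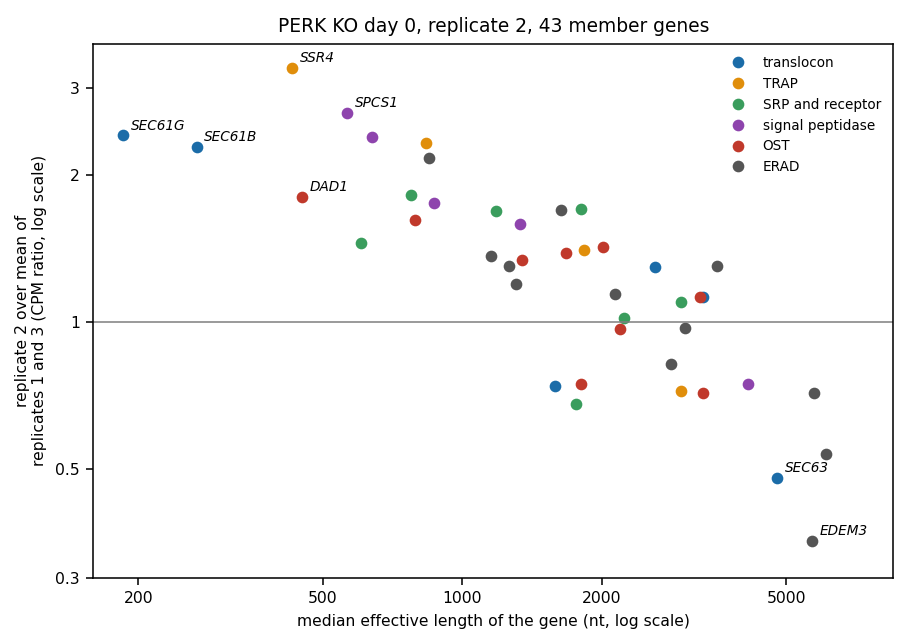
Ratio of CPM in PERK KO day 0 replicate 2 to the mean of replicates 1 and 3 for the 43 genes (log axis) against the gene's median effective length in nt (log axis). All 12 members under 1000 nt lie above 1, with SSR4 highest at 3.31, and EDEM3 is lowest at 0.357.

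The members also differ in the GC content of their transcripts, which moved with the fold changes on some days. Over the 43 genes the log2 fold change and the GC content of the gene had Pearson's r of -0.10, 0.16, -0.66, -0.00, -0.60 and -0.47 at days 0, 1, 2, 3, 5 and 10, a description in which all genes share the same libraries. SEC62, SEC63 and SRP72, all below 40% GC, were among the higher calls of days 2, 5 and 10. Wild-type day 2 replicate 3, the library with the highest GC content of its group, had the lowest SEC62 of that day: SEC62 stood at 65.2, 49.4 and 49.6 CPM in PERK KO, against 25.2, 33.2 and 8.36 CPM in wild type. For SEC62 the log2 fold change was 1.30 ± 0.34 (SE, adjusted p = 0.00253). HERPUD1 and SEC11C kept their calls with the offset at every day from 2 to 10. The part of GC content in the other differences was not tested beyond this offset.

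**Figure D4:**
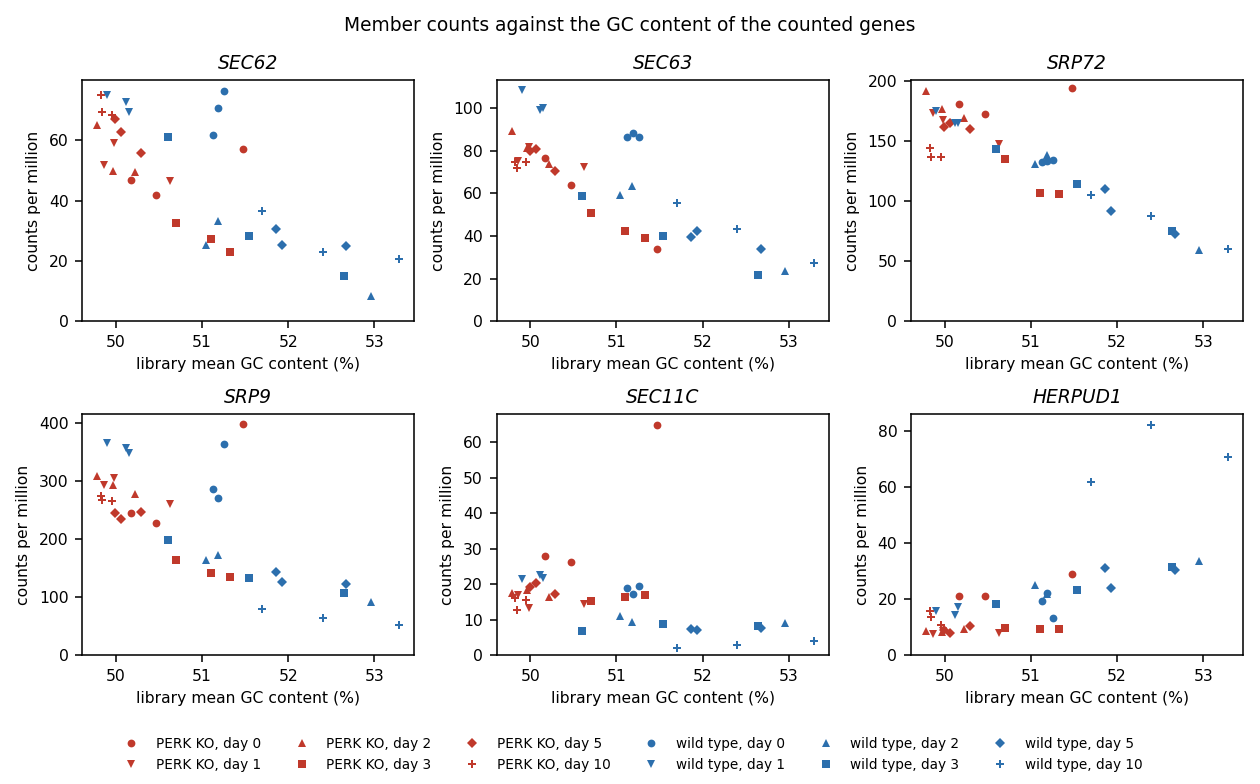
CPM of 6 members (linear axis) in all 36 libraries against the count-weighted mean gene GC content of the library in %, PERK KO in red and wild type in blue. The wild-type libraries of highest GC content, which reach 53.3%, hold the lowest SEC62, SEC63 and SRP72, and the PERK KO libraries reach 51.5%.

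To compare levels between genes, the deposited TPM values, which are per transcript length, were used. In wild-type cells at day 0 the highest members by role were SRP9 at 323 ± 57.2 TPM, SEC61B at 298 ± 6.69 TPM, SSR4 at 300.1 ± 21.8 TPM, SEC11A at 137 ± 8.14 TPM, DAD1 at 189 ± 3.16 TPM and VCP at 213 ± 33.7 TPM (SD, n = 3). The lowest were SRPRB at 18.3 ± 1.91 TPM, SEC61A2 at 10.4 ± 1.55 TPM, SSR1 at 28.5 ± 3.75 TPM, SPCS3 at 23.8 ± 0.607 TPM, MAGT1 at 13.9 ± 1.42 TPM and EDEM3 at 3.76 ± 0.829 TPM. HERPUD1 stood at 17.1 ± 6.23 TPM in PERK KO at day 10 and at 79.7 ± 9.35 TPM in wild type at that day.

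Shares within the 4 pairs of alternative subunits, as percent of the summed TPM of the pair, shifted between the catalytic paralogs. SEC11C made up 14.2 ± 1.29% in PERK KO and 7.67 ± 1.11% in wild type at day 3, 15.1 ± 0.869% in PERK KO and 8.38 ± 0.271% in wild type at day 5 and 9.78 ± 0.846% in PERK KO and 4.30 ± 1.31% in wild type at day 10 of the SEC11A and SEC11C total (SD, n = 3 each). At day 1 it made up 11.1 ± 1.05% in PERK KO and 15.6 ± 1.16% in wild type. STT3B made up 40.8 ± 0.775% in PERK KO and 24.3 ± 4.43% in wild type at day 5 and 38.7 ± 2.59% in PERK KO and 20.6 ± 7.89% in wild type at day 10 of the STT3A and STT3B total, and at day 0 31.2 ± 3.46% in PERK KO and 37.9 ± 3.07% in wild type. At day 1 STT3B was also the smaller share in PERK KO, at 38.6 ± 2.72%, against 44.0 ± 0.632% in wild type. MAGT1 made up 31.1 ± 1.03% in PERK KO and 19.6 ± 2.88% in wild type at day 5 and 15.5 ± 1.83% in PERK KO and 19.8 ± 1.19% in wild type at day 10 of the TUSC3 and MAGT1 total. SEC61A2 made up 18.4 ± 2.41% in PERK KO and 12.6 ± 0.457% in wild type at day 10 of the pore subunits. The groups did not overlap in any of these, and each had an exact two-sided permutation p of 0.1, the smallest that 3 against 3 libraries allow, or 0.141 adjusted over 24 tests. No share difference can therefore pass 0.05 by this test. The groups did overlap for SEC61A2 at days 0 and 2, STT3B at days 2 and 3 and MAGT1 at days 0, 1 and 2. At day 0, leaving out PERK KO day 0 replicate 2 moved the difference for SEC11C to 2.04 points, for SEC61A2 to 3.92 and for MAGT1 to 5.57, against 3.86, 1.61 and 3.11 with all libraries. The shares carry no GC content offset. At day 2 the wild-type STT3B share was 39.1, 39.5 and 19.3%, in libraries of 51.0%, 51.2% and 53.0% mean gene GC content. At day 10 it was 29.4, 18.3 and 14.1%, in libraries of 51.7%, 52.4% and 53.3%. The part of GC content in the shares was not tested.

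**Figure D5:**
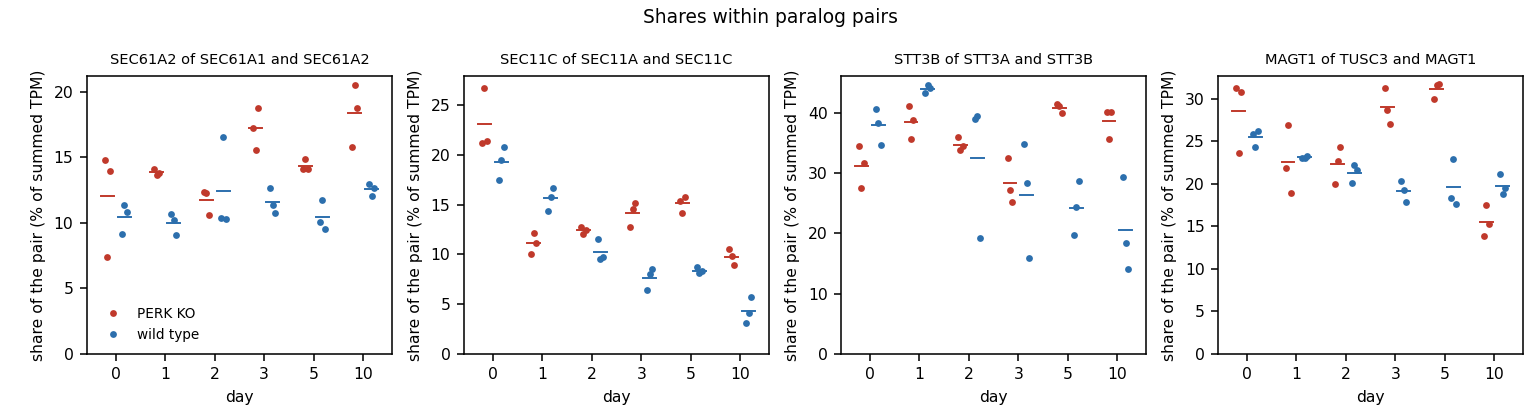
Share of SEC61A2, SEC11C, STT3B and MAGT1 in the summed TPM of their pair in % by day, PERK KO in red to the left of wild type in blue; each point is a library and each bar a mean of 3. STT3B holds 40.8% in PERK KO against 24.3% in wild type at day 5 without overlap, and the sides differ from day to day for MAGT1.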

How the data were processed

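The authors deposited 1 RSEM table per library, with expected counts, effective lengths and TPM per gene per the file headers, and a matrix of the same expected counts (largest difference 0). Per the submitters' processing notes, CASAVA, FastQC, STAR and RSEM were used with GRCh38 (hg38); the sources used here give no version, setting or counting strand. The TPM values were used as deposited, after division by effective length by the authors, for levels between genes and for shares within pairs. Of 58721 gene identifiers, 58676 matched GENCODE 29 in full. The series text speaks of other days than the labels, and the labels were used.

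Rounding came first, since 6.53% to 9.43% of the expected counts per library were fractional. The filterByExpr function of edgeR 4.0.16 (R 4.3.3, limma 3.58.1) left 19772 genes, TMM gave the library scaling, and 1 model held all 12 groups, with 24 residual degrees of freedom and a common biological coefficient of variation of 18.69%. Quasi-likelihood F tests compared PERK KO with wild type at each day, each later day with day 0 in each genotype, and the genotype-by-day interaction; p-values were adjusted over all genes tested by Benjamini-Hochberg, with a threshold of 0.05, and each standard error was taken as |log2 fold change| / √F. Shares were tested by exact permutation. The fit was tested on simulated data. Python 3.11.15, pandas 2.3.3, numpy 2.4.6, scipy 1.17.1 and matplotlib 3.10.9 made the tables and figures.

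The members and gene lists were chosen with earlier results of these data known. Every-library values are given for the 2 members of each role with the smallest adjusted p at a day, for HERPUD1 at every day and for SEC61G, SSR4 and SPCS1 at day 0; further genes named are the 2 with the smallest p in each other list, the markers, and 7 genes of the unfolded protein response including EIF2AK3. A gene that this rule names among the other lists is not reported here. Alternatives were no filter, a stricter filter, RLE scaling, DESeq2 1.42.0, an effective length offset, a replicate block, fits on 6 libraries, and leaving out libraries. The GC content offset (a lowess trend per library, span 0.3) was chosen after seeing the data. GC content was computed per gene over its GENCODE 29 transcripts and is a property of the gene, not of the reads.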

Additional observations from a re-analysis of the deposited data

Results flagged for a closer look

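The courses of the 2 genotypes differed by the interaction test for 39 of the 43 members, and the 8 with the smallest adjusted p are given here (edgeR, all 36 libraries). EDEM2 had an adjusted p of 6.10e-09, and its difference was higher in PERK KO at day 3 and lower at day 10. OS9 had 7.66e-09, with lower calls from day 3 on, and HERPUD1 2.00e-08, with lower calls from day 1 on. TUSC3 had 5.19e-08, with a higher call at day 0 and lower calls at days 3 and 5. SRP9 had 1.24e-07 and SEC11C 3.44e-07, both higher in PERK KO at days 2, 5 and 10. SEC61G had 3.00e-07, with its difference at day 0, where 1 library is far above the others. RPN1 had 1.10e-06, with a higher call at day 0 and lower calls at days 2, 5 and 10. Each of the 8 kept an adjusted p under 0.05 with the GC content offset and without PERK KO day 0 replicate 2. With 3 libraries per group, single libraries were not screened for gaps.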

How the results depend on the processing

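The count of members called at day 0, 16, became 10 with no filter on low counts and 0 with a fit on the 6 libraries of the day, with or without a replicate block. There 1.87% of all genes were called without the block and 0% with it. At day 1 the count of 5 became 2 with no filter and 3 with the effective length offset, where 12.3% of all genes were called. It became 8 with the GC content offset (23.9% of all genes) and 10 without both outlying libraries. On the 6 libraries of the day it became 22 (44.4% of all genes), and 24 there with a replicate block (43.9%). At day 2 the count of 21 became 10 on the 6 libraries with a replicate block, where 32% of all genes were called. The other alternatives left each count of members within 1.5 times. The cause of these moves was not tested.

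With the GC content offset 10 higher calls turned: SPCS2 to -0.14 and MAGT1 to -0.25 at day 2, SPCS2 to -0.11 and SRP54 to -0.019 at day 5, and SEC63 to -0.28, SRP54 to -0.27, SRP72 to -0.39, SPCS3 to -0.040, DERL2 to -0.22 and EDEM3 to -0.15 at day 10. EDEM1 at day 3 became 0.079 with the effective length offset. Of 110 calls of a member at a day, 22 more lost their call with the GC content offset, 26 with no filter, 20 with the length offset, 26 on the 6 libraries and 0 with RLE scaling or DESeq2. The MAGT1 share at day 5 differed by 7.88 points with TPM recomputed from median lengths, against 11.5.

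Leaving out 1 library at a time gave 10 to 18 calls at day 0, 1 to 9 at day 1, 14 to 23 at day 2, 12 to 16 at day 3, 20 to 25 at day 5 and 26 to 37 at day 10 for PERK KO against wild type, and 15 to 26 for PERK KO day 3 against day 0. Of the 110 calls, 39 were lost without some library and 0 changed direction.

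Same-numbered libraries did not deviate together throughout (3 of 18 pairs above 0.1, r from -0.13 to 0.32), so the numbers were not taken as pairs. At day 3 replicates 1 and 3 did, with r of 0.32 and 0.28, and replicate 2 did not (-0.01). A fit on the 6 libraries of day 3 called 12 members, where 44.8% of all genes were called. With a replicate block it called 13 members, where 52% were. A replicate block over all libraries gave 17, 5, 21, 13, 24 and 31 calls at days 0, 1, 2, 3, 5 and 10, and of the 110 calls SPCS1 at day 10 was lost.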
